A study of Homo sapiens with 9 samples.

Results

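The core genes of RNA interference and of the microRNA (miRNA) pathway were followed in HCT116 cells, a human colorectal carcinoma line, after transfection of small interfering RNAs (siRNAs). The group was chosen by name and role, with earlier results of these data known. It holds 10 of the 15354 genes in the expression table: the Argonautes AGO1, AGO2, AGO3 and AGO4, the nucleases DROSHA and DICER1, the Drosha partner DGCR8, the exporter XPO5 and the silencing scaffolds TNRC6A and TNRC6B. Each symbol matched 1 row, and all 10 passed the filter on low values. The study asked what changes when SNHG5, a long non-coding RNA, is depleted. It compared 3 libraries that received a control siRNA with 3 that received siRNA A and 3 that received siRNA B, both directed against SNHG5, and the labels do not say which of the study's named siRNAs each is. All 9 libraries came from the unmodified line, all received an oligonucleotide with the same transfection reagent, at 25 nM by the labels (the study's general transfection method gives a different concentration, and which applied to these libraries was not settled), and no untransfected cells were included, so changes that every siRNA brings about cannot be seen here. The replicates of a group were biological replicates of 1 cell line, and RNA was selected by its poly(A) tail before sequencing of single reads, so mRNAs of the pathway were measured and mature miRNAs were not.

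In the nucleus, Drosha and DGCR8 cut the hairpin of a miRNA out of its primary transcript. Exportin 5 carries the hairpin to the cytoplasm, Dicer cuts it to a short duplex, and an Argonaute keeps 1 strand as its guide. A synthetic siRNA enters at the last step and is loaded into the same Argonautes, among which AGO2 is the main slicer of perfectly paired targets. Proteins of the TNRC6 family bind Argonaute and recruit deadenylases, so that a target paired through the seed of the guide is shortened and silenced.

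Some of these genes, and genes of the wider pathway described further on, carry miRNAs inside their own transcripts. Their mature sequences are shown because the host transcripts changed, from RefSeq on GRCh38.p14, 5′ to 3′ with the seed (bases 2 to 8) in capitals. DGCR8 holds MIR3618 and MIR1306 within its locus, and Drosha is known to cut hairpins in the DGCR8 mRNA itself. The miRNAs from DGCR8 are at chr22:20085797-20085818, chr22:20086072-20086093 and chr22:20086112-20086129, all on the plus strand:
hsa-miR-3618: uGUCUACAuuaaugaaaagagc
hsa-miR-1306-5p: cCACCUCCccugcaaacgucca
hsa-miR-1306-3p: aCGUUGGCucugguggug
These 3 have 3 different seeds. The miRNAs of the host genes named later are hsa-miR-26a-5p (CTDSPL at chr3:37969413-37969434, plus strand, and CTDSP2 at chr12:57824658-57824679, minus strand), hsa-miR-26b-5p (CTDSP1, chr2:218402657-218402677, plus strand), hsa-miR-16-5p (DLEU2, chr13:50049027-50049048, minus strand) and hsa-miR-33a-5p (SREBF2, chr22:41900949-41900969, plus strand):
hsa-miR-26a-5p: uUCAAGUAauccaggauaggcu
hsa-miR-26b-5p: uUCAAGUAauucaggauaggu
hsa-miR-16-5p: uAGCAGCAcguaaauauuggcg
hsa-miR-33a-5p: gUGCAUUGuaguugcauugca
The miR-26 members share the seed UCAAGUA, while miR-16 and miR-33a each have another.

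The genes AGO4, AGO1 and AGO3 lie in a row on the plus strand of chromosome 1. On GRCh37, the build of the files, AGO4 runs from 36273617 to 36323491, AGO1 from 36335409 to 36396133 and AGO3 from 36396319 to 36538101. Their promoters are shown because these neighbours had 3 different patterns in the libraries. Each is 250 bases before and 50 after the start of the RefSeq gene on GRCh38.p14, plus strand, at chr1:35882959-35883258 for AGO1, chr1:35930855-35931154 for AGO3 and chr1:35807766-35808065 for AGO4. Capitals mark the GC box GGGCGG, the CCAAT box CCAAT and the TATA box TATAAA, searched on both strands with no overlap among the matches found:
AGO1: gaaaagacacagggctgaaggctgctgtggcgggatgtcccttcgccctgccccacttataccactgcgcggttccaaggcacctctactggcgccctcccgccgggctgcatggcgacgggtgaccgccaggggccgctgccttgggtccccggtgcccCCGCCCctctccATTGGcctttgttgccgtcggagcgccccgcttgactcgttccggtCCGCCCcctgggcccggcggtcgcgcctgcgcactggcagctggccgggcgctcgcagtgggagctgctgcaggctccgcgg
AGO3: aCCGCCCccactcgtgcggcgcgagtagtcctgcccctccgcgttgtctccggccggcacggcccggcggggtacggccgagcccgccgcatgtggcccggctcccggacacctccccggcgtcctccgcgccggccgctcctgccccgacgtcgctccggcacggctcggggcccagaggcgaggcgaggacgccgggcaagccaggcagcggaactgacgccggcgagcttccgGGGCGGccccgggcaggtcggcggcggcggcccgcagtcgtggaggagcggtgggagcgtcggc
AGO4: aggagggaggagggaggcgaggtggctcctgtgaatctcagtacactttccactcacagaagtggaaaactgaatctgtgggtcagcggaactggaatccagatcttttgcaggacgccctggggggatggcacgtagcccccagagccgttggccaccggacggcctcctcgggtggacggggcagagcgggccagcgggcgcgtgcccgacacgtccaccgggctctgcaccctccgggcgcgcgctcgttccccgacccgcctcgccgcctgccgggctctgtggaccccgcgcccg
AGO1 held 2 GC boxes and 1 CCAAT box, AGO3 held 2 GC boxes, and AGO4 held none of the 3 motifs. Among all 35116 promoters of this length, 45.0% held a GC box, 34.6% a CCAAT box and 11.5% a TATA box. The windows held 30 CpG dinucleotides for AGO1, 50 for AGO3 and 29 for AGO4, where the median of all promoters was 14.

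The libraries held between 15566530 and 23277549 counted reads. Values are given as CPM (each gene's reads as a share of the library total, put on a common scale) after scaling by the trimmed mean of M-values (TMM), and fold changes as log2 of CPM + 1. The TMM factors were 1.10 to 1.19 in the control libraries, 0.85 to 0.914 with siRNA A and 0.948 to 1.035 with siRNA B, so the choice of scaling matters: with library totals alone the median gene moved by −0.34 with siRNA A and −0.18 with siRNA B, against −0.02 and 0.00 after TMM. The targeted RNA went against the labels. SNHG5 stood at 31.3, 22.1 and 25.9 in the control libraries, at 71.5, 58.8 and 67.3 in those labelled siRNA A and at 46.2, 50.3 and 46.1 in those labelled siRNA B. It was higher in every library labelled as depleted (log2 1.29 for siRNA A and 0.83 for siRNA B, limma, adjusted p = 1.86e-05 and 0.00059). In GENCODE v44, used here for annotation, the SNHG5 locus spans chromosome 6 from 86360209 to 86388650 on GRCh37. There it shares exonic sequence on its own strand with PKMP3 and an unnamed gene. Whether the exons counted for the deposited row were the same was not checked, so whether the row holds SNHG5 reads alone is not settled. All directions below are therefore those of the labels, and none is tied to a loss of SNHG5. The 5 epithelial markers EPCAM, KRT8, KRT18, KRT19 and CDH1 were all present, with a summed level of 1735 to 1884 in control and of 3033 to 4015 with siRNA A and 2325 to 2484 with siRNA B. The sum was mostly KRT8, KRT18 and KRT19; EPCAM was instead lower with siRNA A (111 to 128, against 156 to 194 in control), and CDH1 was at 32.8 to 43.6 in control, 33.6 to 45.3 with siRNA A and 28.8 to 32.2 with siRNA B. Of 8 markers of other cell types, 4 were measured, with a sum of 9.91 to 18.1 in all libraries that was mostly COL1A1, and COL3A1 and ALB were at 0 or near it. The part of these shifts in the results was not tested, and in bulk RNA fewer cells with a transcript and less of it per cell cannot be told apart.

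In the libraries labelled siRNA A, 8 of the 10 genes passed an adjusted p of 0.05, 3 higher (AGO3, XPO5, TNRC6A) and 5 lower (AGO1, AGO4, DROSHA, DGCR8, TNRC6B). Among all 13893 genes tested, 51.4% passed, 23.9% higher and 27.6% lower. In the libraries labelled siRNA B, 5 of 10 passed, 4 higher (AGO3, XPO5, TNRC6A, TNRC6B) and 1 lower (AGO1), where the background was 34.0%, with 15.6% higher and 18.3% lower. The count for siRNA B fell to 3 without control replicate 3 and to 3 without siRNA B replicate 2. The median fold change of the 10 genes was −0.43 with siRNA A and 0.14 with siRNA B. By library totals alone the split was 2 higher and 6 lower with siRNA A, and 2 higher and 2 lower with siRNA B. The same 3 control libraries serve both comparisons, so the agreement between them is not independent: 4 of the 10 genes changed the same way with both siRNAs (21.9% of all genes did) and 1 changed in opposite directions (1.77% of all genes).

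**Figure D1:**
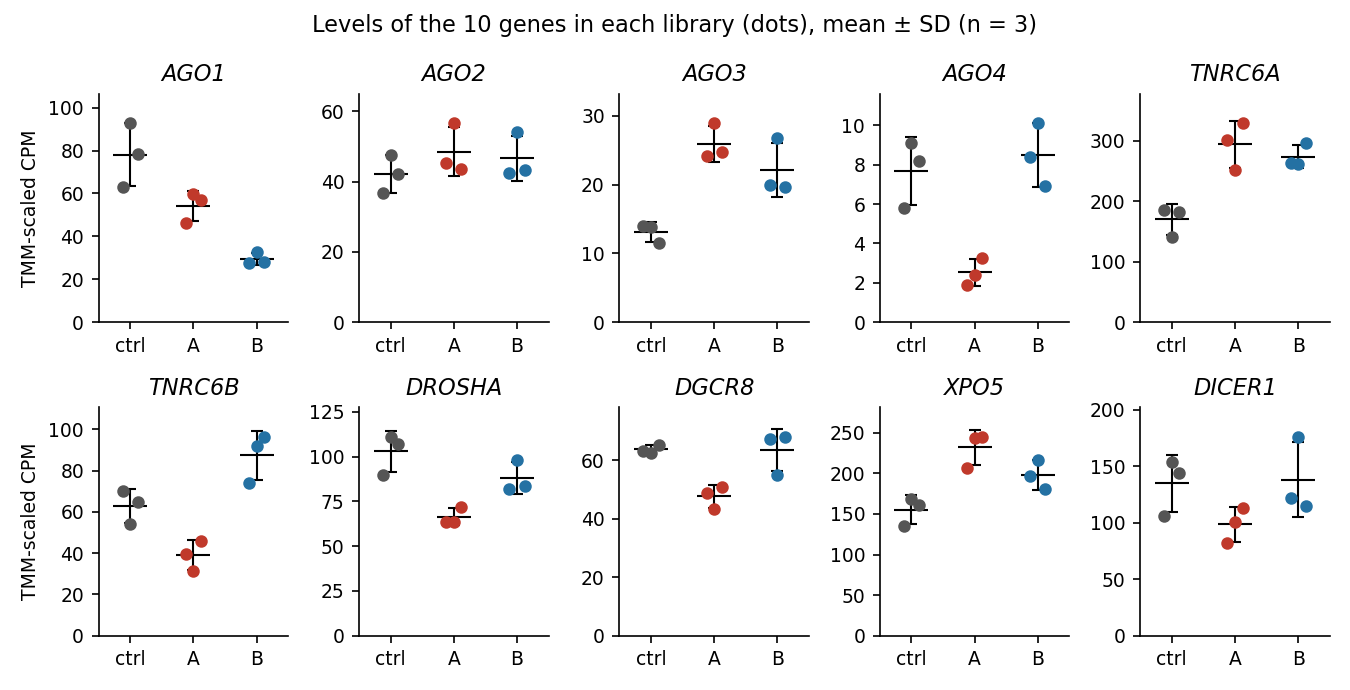
TMM-scaled CPM of the 10 genes (vertical axes, each from 0) in the control (ctrl), siRNA A and siRNA B libraries. Dots are single libraries, and horizontal marks with bars are the mean ± SD of 3 libraries. AGO4 lies at 1.91 to 3.27 with siRNA A and at 5.78 or above in the other 6 libraries, and AGO1 falls from 63.2 to 92.7 in control to 27.5 to 32.6 with siRNA B.

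Set beside each other per kilobase of exon, the 10 mRNAs of the control cells spanned a wide range of levels. XPO5 was first, with 18.3 ± 2.11 CPM per kb (SD, n = 3), followed by DROSHA at 13.2 ± 1.47, TNRC6A at 13.1 ± 1.94 and DGCR8 at 8.69 ± 0.192. DICER1 (6.08 ± 1.14) and AGO1 (5.56 ± 1.05) came next, then TNRC6B (3.15 ± 0.41) and AGO2 (2.66 ± 0.341), and AGO4 (1.04 ± 0.232) and AGO3 (0.621 ± 0.0671) were last. The ranges of the control libraries overlapped for DROSHA and TNRC6A, for DICER1 and AGO1, and for TNRC6B and AGO2. These ranges alone do not settle the order within the pairs, since each library holds both genes and the genes were not compared library by library. The length of the longest transcript in place of all exons put TNRC6A before DROSHA and kept the rest of the order. By that length the control ranges of DICER1 (8.36 to 12.1) and AGO1 (4.61 to 6.76) did not overlap.

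DROSHA, the nuclease that opens miRNA maturation (chromosome 5, 31400601 to 31532303, GRCh37, minus strand), had levels of 89.6, 111 and 107 CPM in control, of 63.6, 63.6 and 71.7 with siRNA A and of 82, 98.2 and 83.5 with siRNA B. The siRNA A libraries were below all others, while siRNA B overlapped control. In the siRNA A libraries DROSHA was 1.53-fold lower, a log2 change of −0.62 (limma, SE 0.11, adjusted p = 0.000916). The value with siRNA B was −0.22 (95% interval −0.47 to 0.03, adjusted p = 0.161), and by library totals alone it passed the threshold at −0.43 (adjusted p = 0.016).

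DGCR8 is the RNA-binding partner that holds the hairpin for Drosha, and its locus on the plus strand of chromosome 22 runs from 20067744 to 20099400. It stood at 63.2, 62.6 and 65.3 in control, at 48.8, 43.2 and 51 with siRNA A and at 67.1, 55.1 and 68 with siRNA B. Again the 3 siRNA A libraries were below the rest. The log2 change was −0.41 for siRNA A (limma, SE 0.11, adjusted p = 0.00765), and the siRNA B value was −0.01 (95% interval −0.25 to 0.23). TRMT2A overlaps DGCR8 exons on the other strand, and whether counting used the strand is not given in the sources used here. TRMT2A itself had values of −0.42 for siRNA A, which passed (adjusted p = 0.0166), and −0.27 for siRNA B, which did not (adjusted p = 0.128), and reads of the shared stretch were not separated here.

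Both subunits of this nuclear complex also differed between the siRNAs, DROSHA by −0.40 (adjusted p = 0.0175) and DGCR8 by −0.40 (adjusted p = 0.0131) for siRNA A against siRNA B. These calls were lost in some fits that left out 1 library: for DROSHA without siRNA A replicate 1 or 2 or siRNA B replicate 2 (−0.37, −0.37 and −0.32), for DGCR8 without siRNA B replicate 1 or 3 (both −0.35). The number of DROSHA reads per DGCR8 read, a ratio that no scaling touches, was 1.42, 1.78 and 1.64 in control, 1.3, 1.47 and 1.41 with siRNA A and 1.22, 1.78 and 1.23 with siRNA B. The 3 groups overlapped in this ratio.

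XPO5, which exports the hairpins, moved opposite to the nuclear complex with siRNA A. It was also higher with siRNA B, where neither DROSHA nor DGCR8 passed. It stood at 135, 169 and 161 in control, at 207, 243 and 245 with siRNA A and at 197, 217 and 181 with siRNA B, with every siRNA library above every control library. The log2 changes for siRNA A and siRNA B were 0.58 and 0.36 (limma, SE 0.12 each, adjusted p = 0.00167 and 0.0355). These calls rest on the scaling: in CPM as deposited the groups overlapped, and with library totals alone the values were 0.21 and 0.15 (adjusted p = 0.164 and 0.395), still above the median gene of that scaling. For siRNA B, 4 of the fits that left out a library also missed the threshold: those lacking control 1, control 3, siRNA B 1 or siRNA B 2 (0.25 to 0.37). POLR1C, which overlaps XPO5 exons on the other strand of chromosome 6, rose in the siRNA A libraries (0.43, adjusted p = 0.00333), and its siRNA B value was −0.01 (adjusted p = 0.93).

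Within a library, XPO5 reads per DROSHA read were 1.51, 1.52 and 1.5 in control, 3.26, 3.83 and 3.41 with siRNA A and 2.4, 2.21 and 2.17 with siRNA B. The 3 groups did not overlap in this ratio of exporter to nuclease, which does not depend on scaling between libraries.

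DICER1 (chromosome 14, 95552565 to 95624347, minus strand) stood at 106, 154 and 144 in control, at 81.9, 101 and 113 with siRNA A and at 122, 176 and 115 with siRNA B. The siRNA A libraries were low but overlapped the lowest control library. The change with siRNA A was −0.44 (SE 0.18, limma, adjusted p = 0.0637) and did not pass. No label pairs the libraries, and replicate numbers were taken to pair control with siRNA A from these same data. With the number as a block over all 9 libraries, siRNA B included, the value passed at −0.44 (limma, adjusted p = 0.0109). With a correction for GC content and the block it passed at −0.57 (adjusted p = 0.000992). It also passed with the GC correction alone, with library totals alone (−0.81, adjusted p = 0.00199), without control replicate 1 (−0.60) and without siRNA B replicate 2. With siRNA B the value was 0.03 (95% interval −0.38 to 0.43). The antisense RNA DICER1-AS1 overlaps DICER1 exons and had at most 30 reads in a library, against at least 1334 for DICER1.

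AGO1, an Argonaute with little slicing activity, was lower with both siRNAs, and most with siRNA B. Its levels were 63.2, 92.7 and 78.5 in control, 46.4, 59.6 and 56.9 with siRNA A and 27.5, 32.6 and 28.1 with siRNA B, so that the 3 groups formed separate ranges. The siRNA B level was 2.58-fold lower, a log2 change of −1.37 (limma, SE 0.15, adjusted p = 5.59e-05), and that of siRNA A changed by −0.51 (SE 0.15, adjusted p = 0.0127). Compared directly, siRNA A stood 0.86 above siRNA B (adjusted p = 0.00101). AGO1 no longer passed for siRNA A in the fits lacking control 2 (−0.39, adjusted p = 0.056) or siRNA A 1 (−0.40, adjusted p = 0.0567).

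AGO3, the least abundant Argonaute per kilobase in control cells, was higher with both siRNAs. It stood at 14, 13.9 and 11.5 in control, at 24.1, 28.9 and 24.7 with siRNA A and at 20, 26.7 and 19.7 with siRNA B. Every siRNA library exceeded every control library. The log2 changes for siRNA A and siRNA B were 0.93 and 0.70 (limma, SE 0.14 each, adjusted p = 0.000253 and 0.00279), and both calls held under every alternative run. For siRNA A against siRNA B the value was 0.23 (95% interval −0.08 to 0.54, adjusted p = 0.227), and in the fit lacking siRNA B 2 it was 0.36 and passed (adjusted p = 0.0483).

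AGO4 changed in 1 of the comparisons with control. It stood at 5.78, 9.12 and 8.17 in control, at 1.91, 2.42 and 3.27 with siRNA A and at 8.41, 10.1 and 6.93 with siRNA B. It is a low mRNA: the siRNA A values rest on 36, 32 and 61 reads and the control values on 145, 210 and 187. AGO4 was 2.46-fold lower in the siRNA A libraries, a log2 change of −1.30 (limma, SE 0.19, adjusted p = 0.000239), and at −1.43 relative to siRNA B (adjusted p = 0.000248). With a pseudocount of 1 these values understate the fold of so low a gene. With siRNA B the value was 0.13 (95% interval −0.29 to 0.56).

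AGO2, the main slicer, had the smallest fold changes among the Argonautes in the siRNA A comparison. Its levels were 36.8, 47.6 and 42.1 in control, 45.3, 56.6 and 43.7 with siRNA A and 42.4, 54.1 and 43.3 with siRNA B, with overlap among all groups. The values were 0.20 with siRNA A (95% interval −0.11 to 0.50, limma, adjusted p = 0.258) and 0.14 with siRNA B (−0.16 to 0.45, adjusted p = 0.471), and both turned negative with library totals alone (−0.16 and −0.07).

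**Figure D2:**
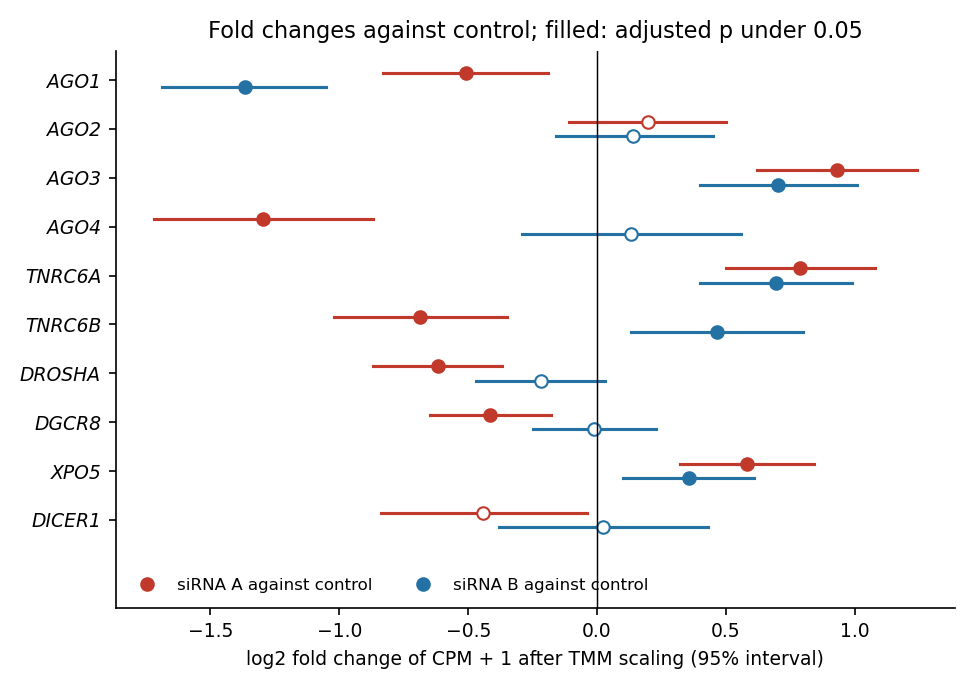
Log2 fold changes of the 10 genes against control (horizontal axis, CPM + 1 after TMM) for siRNA A in red and siRNA B in blue, with 95% intervals from limma over 3 libraries a group. Filled dots passed an adjusted p of 0.05. TNRC6B and AGO4 separate most between the siRNAs, and AGO3 and TNRC6A lie on the higher side with both.

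These shifts changed the makeup of the Argonaute mRNA pool, taken as reads per kilobase of exon within each library, which no scaling between libraries touches. AGO1 made up 54.4, 57.4 and 56.5% of the AGO1 to AGO4 sum in control, 43.7, 44.6 and 48.1% with siRNA A and 29.1, 27.8 and 30.3% with siRNA B. The share of AGO2 was 27 ± 0.996% (SD, n = 3) in control and reached 36.1 ± 2.83% with siRNA A and 40.7 ± 0.759% with siRNA B, so AGO2 was the largest of the 4 shares in every siRNA B library. A larger share of AGO2 stood beside an AGO2 level that did not pass the test. The AGO1 level was lower and the AGO3 level higher with both siRNAs, and the AGO4 level was lower with siRNA A. How much each of them moved the AGO2 share was not tested.

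The share of AGO3 was 6.41 ± 1.39% in control and reached 14.5 ± 0.613% with siRNA A and 14.4 ± 0.578% with siRNA B. The share of AGO4 was 10.4 ± 0.883%, 4.02 ± 1.05% and 15.8 ± 1.45% in the same order. With the longest transcript as length, the AGO2 share in control was 28.1% and the AGO1 share 55.1%. Between the adjacent genes AGO1 and AGO3, AGO3 reads per AGO1 read were 0.222, 0.15 and 0.146 in control, 0.521, 0.485 and 0.434 with siRNA A and 0.728, 0.82 and 0.702 with siRNA B, with no overlap among the 3 groups.

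**Figure D3:**
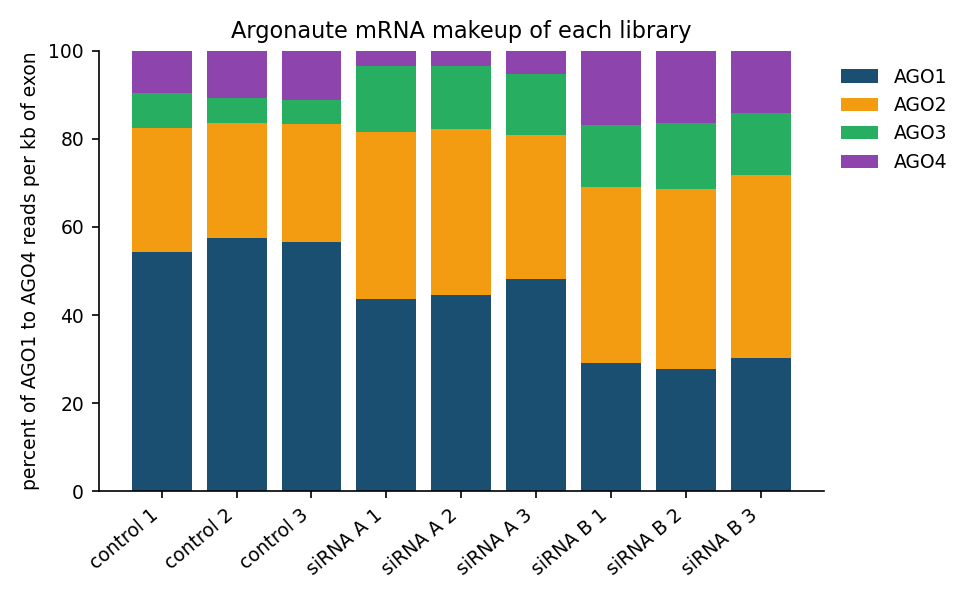
Share of AGO1, AGO2, AGO3 and AGO4 in the sum of their reads per kb of exon (vertical axis, percent), 1 bar for each library. The AGO1 share falls from 54.4 to 57.4% in control to 27.8 to 30.3% with siRNA B, and the AGO4 share is 3.41 to 5.23% with siRNA A.

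TNRC6A, a scaffold that joins Argonaute to the deadenylases (chromosome 16, 24621530 to 24838953, plus strand), was higher with both siRNAs. It stood at 186, 141 and 183 in control, at 301, 252 and 329 with siRNA A and at 264, 262 and 296 with siRNA B, with no overlap with control. The log2 changes for siRNA A and siRNA B were 0.79 and 0.70 (limma, SE 0.13 each, adjusted p = 0.000508 and 0.00213), and both calls held under every alternative run.

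Its paralogue TNRC6B (chromosome 22, 40440821 to 40731812, plus strand) moved in opposite directions. Its levels were 70.1, 54 and 64.9 in control, 39.7, 31.4 and 45.9 with siRNA A and 74.2, 91.9 and 96.4 with siRNA B, and the 3 groups did not overlap. In CPM as deposited, siRNA B (76.8, 87.1 and 94.5) did overlap control (79.7, 64.4 and 71.6). The log2 changes for siRNA A and siRNA B were −0.69 and 0.47 (limma, SE 0.15 each, adjusted p = 0.00307 and 0.0353). Compared directly, siRNA A stood at −1.15 relative to siRNA B (SE 0.15, adjusted p = 0.000219), 2.22-fold lower. For siRNA B, TNRC6B missed the threshold under scaling by totals (0.26, adjusted p = 0.221) and in the fits lacking control 2, control 3, siRNA B 2 or siRNA B 3 (0.34, 0.47, 0.43 and 0.39), whereas the difference between the siRNAs passed in all of these fits.

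TNRC6C, the remaining paralogue, is no member of the group of 10 but belongs to the same family. It stood at 36.6, 31.6 and 37.4 in control, at 17.8, 13.9 and 16.5 with siRNA A and at 20.6, 18.6 and 18.6 with siRNA B, lower in every siRNA library. The changes were −1.09 (limma, adjusted p = 3.27e-05) and −0.83 (adjusted p = 0.000363). The 3 paralogues thus had 3 patterns: higher with both, lower then higher, and lower with both. TNRC6A reads per TNRC6B read were 2.65, 2.61 and 2.82 in control, 7.59, 8.02 and 7.16 with siRNA A and 3.56, 2.85 and 3.07 with siRNA B, and the siRNA A libraries were far above the rest.

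**Figure D4:**
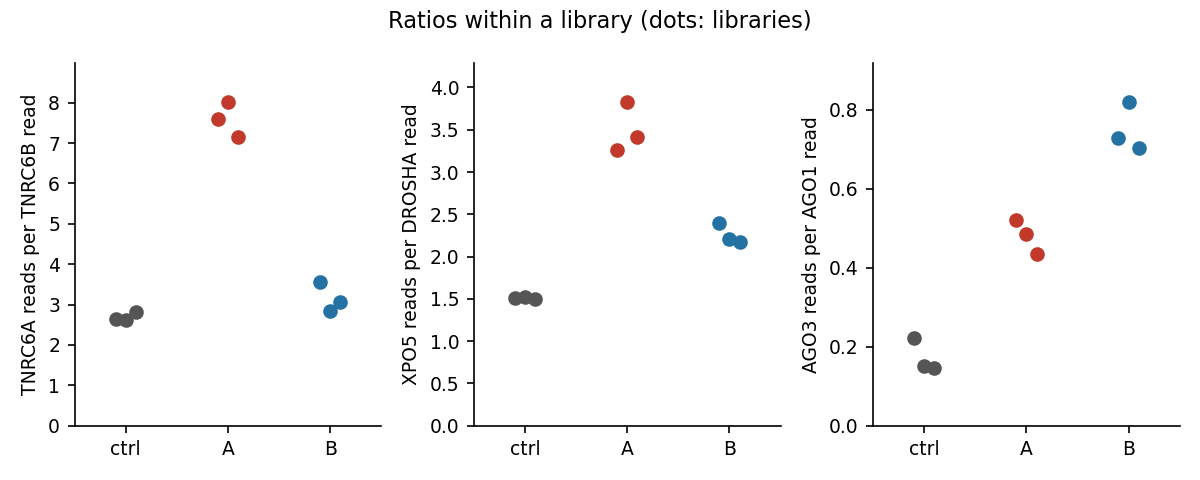
Ratios of reads within a library (vertical axes, from 0) for TNRC6A to TNRC6B, XPO5 to DROSHA and AGO3 to AGO1, in control (ctrl), siRNA A and siRNA B, with 1 dot for each library. TNRC6A per TNRC6B is 7.16 to 8.02 with siRNA A and at most 3.56 elsewhere, and XPO5 per DROSHA and AGO3 per AGO1 form 3 separate ranges.

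Directly compared, siRNA A and siRNA B libraries differed in 5 of the 10 genes, with 1 higher with siRNA A (AGO1) and 4 lower (AGO4, DROSHA, DGCR8, TNRC6B). Of all genes tested, 37.1% differed, 17.6% higher and 19.5% lower. Counted by ranges of TMM-scaled CPM rather than by the model, groups did not overlap for 8 of 10 genes between siRNA A and control (59.5% of all genes). They did not overlap for 5 between siRNA B and control (47.6%) and for 6 between siRNA A and siRNA B (47.6%). Between the siRNAs, DICER1 joined the 5 called genes, with the lowest siRNA B library (115) just above the highest siRNA A library (113). In CPM as deposited the counts were the same, but the genes against control were partly others. XPO5 then overlapped control with both siRNAs and TNRC6B with siRNA B. DICER1 with siRNA A, and DROSHA and DGCR8 with siRNA B, were then below all control libraries.

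The wider pathway was read from 6 lists of genes with known roles, of which 102 genes were tested. With siRNA A, 44 were higher and 15 lower, with a median of 0.21 against −0.02 for all genes; with siRNA B, 29 were higher and 12 lower, with a median of 0.21 against 0.00. Of all genes, 23.9% were higher and 27.6% lower with siRNA A, and 15.6% and 18.3% with siRNA B, and each list below is read beside these shares. By library totals alone the calls in the 6 lists went from 59 to 50 with siRNA A and from 41 to 32 with siRNA B. The median of all genes was then −0.34 with siRNA A and −0.18 with siRNA B. The directions and medians of the lists under that scaling are not given here, so the excess of higher genes is shown after TMM only. Among 13 proteins that assist nuclear processing, 8 were higher and 1 lower with siRNA A (median 0.47), and 6 higher and 0 lower with siRNA B (median 0.33). HNRNPA1, which binds miRNA hairpins, rose by 1.19 and 0.64, from 145, 128 and 145 in control to 279, 415 and 278 with siRNA A and 221, 226 and 204 with siRNA B. SRSF3, a splicing factor that helps Drosha find its cut site, rose by 0.96 and 0.46. RAN, the GTPase that exportin 5 needs for transport, rose by 0.92 and 0.41. For siRNA B, SRSF3 and RAN missed the threshold under scaling by totals and in the fit lacking control 2, and RAN also with the GC correction (0.32) and in the fit lacking siRNA B 1 (0.37).

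Among 12 partners of Dicer and chaperones of Argonaute loading, 8 were higher and 1 lower with siRNA A (median 0.31), and 3 higher and 0 lower with siRNA B (median 0.23). The 3 called with both were modest: FKBP4 (0.60 and 0.34) and STIP1 (0.34 and 0.31), co-chaperones of HSP90, and PRKRA (0.29 and 0.44), a double-stranded RNA-binding partner of Dicer. With library totals alone, PRKRA and STIP1 turned negative with siRNA A (−0.07 and −0.03), and none of the 3 passed with either siRNA. PRKRA also missed the threshold for siRNA A with the GC correction (0.18) and in the fits lacking control 3 or siRNA A 1. For siRNA B, FKBP4 and STIP1 did so in the fits lacking control 3, siRNA B 1 or siRNA B 3, and STIP1 in the fit lacking control 1.

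Among 15 partners and regulators of Argonaute, 8 were higher and 4 lower with siRNA A (median 0.28), and 7 higher and 4 lower with siRNA B (median 0.25). IPO8, an importin that binds Argonautes, stood at 66.8, 91.9 and 82.2 in control, at 21.2, 32.3 and 24.3 with siRNA A and at 43.6, 55.7 and 42.3 with siRNA B, changes of −1.60 (limma, adjusted p = 2.47e-05) and −0.75 (adjusted p = 0.00537). ANKRD52, the subunit of the phosphatase that removes phosphates from AGO2, stood at 140, 164 and 194 in control, at 99.9, 93.9 and 114 with siRNA A and at 65.3, 62.9 and 67.7 with siRNA B, changes of −0.68 and −1.32 (adjusted p = 0.000824 and 2.38e-05). With TNRC6C these were the 3 genes of the list that fell with both siRNAs. More of the list, 6 genes not named here, rose with both.

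Among 24 silencing effectors, such as deadenylases and decapping factors, 10 were higher and 2 lower with siRNA A (median 0.14), and 3 higher and 0 lower with siRNA B (median 0.17). PABPC1, the poly(A)-binding protein that TNRC6 contacts, was higher by 0.76 and 0.77, and CNOT6, a deadenylase of the CCR4-NOT complex, by 0.43 and 0.36. PABPC1 and CNOT6 missed the threshold for siRNA A under scaling by totals (0.39 and 0.07), and CNOT6 also with the GC correction (0.30) and in the fits lacking control 1 or siRNA A 2. The CNOT6 call with siRNA B (adjusted p = 0.0484) lay at the threshold and was lost under most changes of the processing. Among 8 genes of miRNA turnover, 2 were higher and 0 lower with siRNA A (median 0.05), and 1 higher and 1 lower with siRNA B (median 0.09); SND1, a nuclease tied to miRNA decay, was called with both (0.55 and 0.40), though with neither by library totals alone. HNRNPA1, RAN and PABPC1 have processed copies elsewhere in the genome, and how reads with several matches were counted is not given in the sources used here. Exons of AGO1, AGO3, TNRC6C, FKBP4, PRKRA, STIP1, ANKRD52, CTDSP1, DLEU2 and SREBF2 overlap genes annotated on the other strand, so reads of these partners could be mixed in.

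Host genes carry miRNAs in their introns or exons. Of 30 tested, 8 were higher and 7 lower with siRNA A (median 0.04), and 9 higher and 7 lower with siRNA B (median 0.22); the 15 of 30 called with siRNA A are near the 51.4% of all genes. CTDSPL, host of miR-26a, stood at 57.9, 62.4 and 57.4 in control, at 7.71, 8.16 and 8.2 with siRNA A and at 16.5, 13.1 and 17.8 with siRNA B, changes of −2.74 and −1.85 (limma, adjusted p = 2.75e-07 and 2.06e-06). CTDSP1, host of miR-26b, fell by 0.98 and 1.11. CTDSP2, the other host of miR-26a, was in the list but outside the rule for naming, and was added after its values were seen. It fell by 0.39 and 0.34. The hosts of miR-26a and miR-26b, which share the seed UCAAGUA shown above, were thus lower with both siRNAs, while the mature miRNAs were not measured. Other miRNAs with this seed were not searched for.

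DLEU2, a host of miR-16, rose with both siRNAs, from 21.3, 16.4 and 19.5 to 47.8, 43.7 and 51.4 with siRNA A and 50.6, 49.5 and 38.3 with siRNA B (1.28 and 1.23, limma, adjusted p = 2.47e-05 and 6.46e-05). Another copy of miR-16 lies within SMC4 on chromosome 3, which is in the host list and whose values are not given here. SREBF2, host of miR-33a and a regulator of sterol synthesis, was the 1 host that moved in opposite directions. It stood at 140, 135 and 167 in control, at 242, 249 and 271 with siRNA A and at 82.4, 79.7 and 84.8 with siRNA B, changes of 0.79 and −0.82 (adjusted p = 9.64e-05 and 0.000147). Both of its changes were opposite in sign to those of TNRC6B.

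**Figure D5:**
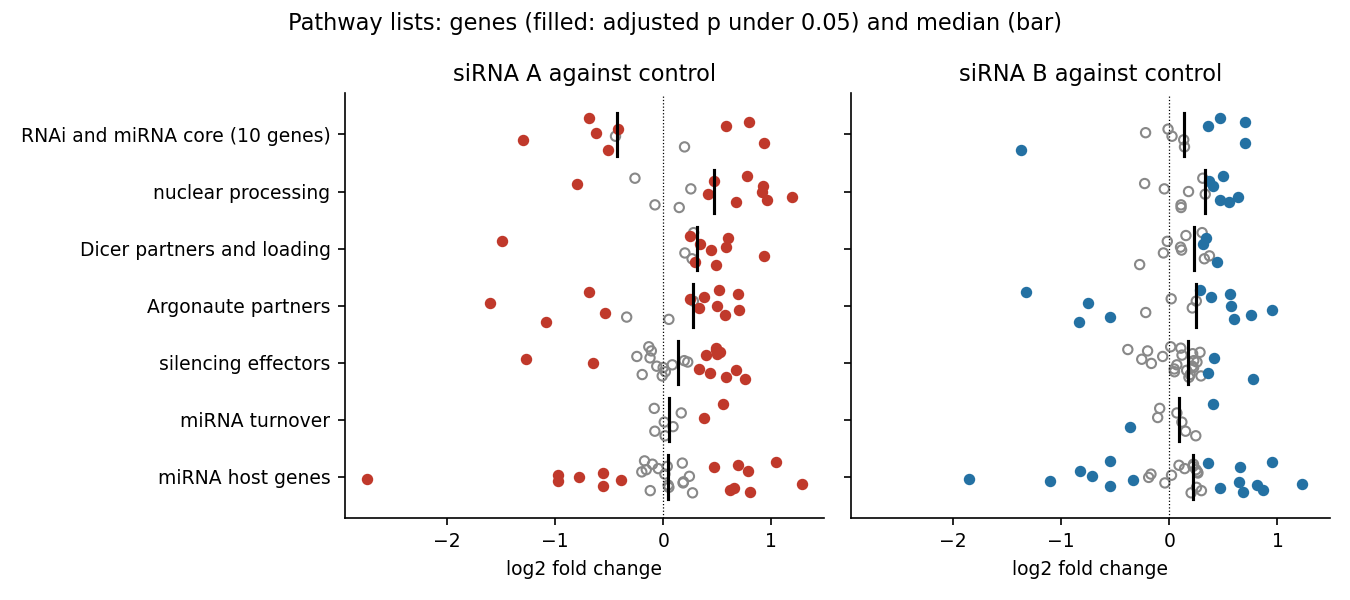
Log2 fold changes (horizontal axes) of the 10 core genes and of the genes in the 6 pathway lists, for siRNA A and siRNA B against control. Filled dots passed an adjusted p of 0.05 and vertical bars are medians. The median of the 10 core genes is −0.43 with siRNA A and 0.14 with siRNA B, and that of the nuclear processing list 0.47 and 0.33.

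For the 5 genes that passed with both siRNAs, the most similar profiles were sought over the 9 libraries, as the smallest root-mean-square (rms) difference of centred log2 values among all genes tested. For AGO1 they were EIF4G1, a scaffold of translation initiation (rms 0.074, where the AGO1 profile itself had an rms of 0.589), and CNNM4 (0.093). For AGO3 the snoRNA host GAS5 is given (0.111). XPO5 was nearest to SOCS5 (0.058) and ADNP (0.060), and TNRC6A to FNBP4 (0.064) and VPS36 (0.089). TNRC6B was nearest to ZC3H6 (0.113) and ANKS1B (0.137), whose changes were −0.59 and −0.68 with siRNA A and 0.33 and 0.34 with siRNA B. This is a description of 9 libraries from 1 experiment, with no test.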

How the data were processed

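RNA of HCT116 cells was sequenced in 9 libraries, 3 per group, on the HiSeq2000. The submitters' notes name TopHat2 (version 2), HTSeq (version 2) and GRCh37; strand use and the treatment of reads with several matches are not given in the sources used here. The authors deposited 1 table of CPM per Ensembl gene, relative to each library's counted reads. All values were whole reads once multiplied by the library total (100% of values within 1e-06), so depth was recovered. Symbols, exon lengths and overlaps between genes came from GENCODE v44 lifted to GRCh37, and 14871 of 15354 rows matched. The annotation used for counting was not compared with it. The filter kept the 13893 genes that reached 1 CPM in 3 or more libraries. CPM were scaled by TMM (edgeR 4.0.16) and tested as log2(CPM + 1) with limma 3.58.1 (trend, R 4.3.3), all 9 libraries in 1 fit, 1 mean per group, and p adjusted by Benjamini-Hochberg over all genes tested. Alternatives were library totals alone, a pseudocount of 0.1, no filter, edgeR and DESeq2 1.42.0 on recovered reads, the replicate number as a block, a correction for GC content (known for 97.2% of genes), both together, and leaving out each library. The longest-transcript length and the overlap of groups in CPM as deposited were added after seeing the data. The script was tested on simulated data.

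Deviations of same-numbered libraries correlated between control and siRNA A with r of 0.646, 0.411 and 0.13, weakly for number 3. For siRNA B the r were 0.173, 0.445 and −0.386 with control and 0.204, 0.442 and 0.019 with siRNA A. Numbers were taken to pair control with siRNA A from these data, not from the labels. Libraries of different numbers were not correlated, so these values do not establish the pairing. No 2 libraries of a group agreed within sampling noise. The members and gene lists were chosen with earlier results of these data known. All 10 members are named, with, from each list, the 3 genes of largest mean change called the same way with both siRNAs, and any called in opposite directions. DCP1A, LIN28A, MIR31HG and MIR155HG were not analysed here, nor were 4 of the 8 markers of other cell types. A gene among the similar profiles is not reported here. The siRNA sequences are not shown.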

Additional observations from a re-analysis of the deposited data

How the results depend on the processing

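Of 510 pairs of a member's fold change and an alternative, 461 kept their direction and side of the threshold, 18 lost a call, 14 gained one and 17 changed sign; for the named list genes 504 of 544 were kept, 38 lost a call and 2 changed sign. The count of called members was 7 to 9 of 10 with siRNA A and 3 to 5 with siRNA B when 1 library was left out. SNHG5 between the siRNAs (0.46) ranged from 0.400 to 0.538 when 1 library was left out and was 0.31 with library totals alone (limma, adjusted p = 0.0938). It also missed the threshold in the fits lacking siRNA A 1, siRNA A 3 or siRNA B 1 (limma, adjusted p = 0.0618, 0.0502 and 0.0566). The AGO2 share in control was 28.1% by the longest transcript. The sign changes were all in values that did not pass the test, apart from PRKRA and STIP1 with siRNA A (−0.072 and −0.030 with library totals alone). With library totals alone AGO2 was −0.164 with siRNA A, −0.068 with siRNA B and −0.096 between them, AGO4 −0.056 and DICER1 −0.186 with siRNA B, and TNRC6A −0.062 between the siRNAs. With the GC correction, with or without the block, DICER1 was −0.076 and DGCR8 0.068 with siRNA B, and DESeq2 gave DGCR8 0.005. Over the fits that left out 1 library, the siRNA B values ran from −0.042 to 0.258 for AGO4, from −0.162 to 0.142 for DICER1 and from −0.063 to 0.086 for DGCR8, and the value between the siRNAs from −0.056 to 0.166 for AGO2. The cause was not tested. Over all genes, the share of calls that were higher with siRNA A was 46.4% after TMM and 16.1% with library totals alone, and 46% and 18.8% with siRNA B.

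The replicate block called 9 members with siRNA A, adding DICER1 (−0.44, adjusted p = 0.0109), 5 with siRNA B, and 6 between the siRNAs, again adding DICER1 (−0.47, adjusted p = 0.0111). It changed no other call of a member. The block held all 9 libraries, and pairing by number was not established. For number 3, r was −0.386 between siRNA B and control, 0.019 between siRNA B and siRNA A and 0.13 between control and siRNA A. AGO4 rests on the fewest reads of the group, 32 in its lowest library, and is the member for which depth limits precision most.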
